A study of Mus musculus with 4 samples.

Results

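The genes described here encode subunits of the mitochondrial respiratory chain and of ATP synthase, in tumors of autophagy-deficient mouse kidney epithelial cells. They were chosen by gene symbol (the Nduf, Sdh, Uqcr, Cox4 to Cox8 and Atp5 series, with Cyc1 and Cycs), and each gene was represented by its probe set of highest mean signal. Of 12393 genes with a probe set of their own, 80 met this rule: 33 of complex I, 4 of complex II, 9 of complex III, 16 of complex IV, 17 of complex V, and cytochrome c. All are nuclear-encoded, and 151 probe sets measured them, with 1 to 6 for each gene.

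RNA came from 4 tumors that grew after subcutaneous injection of immortalized baby mouse kidney cells (iBMK) into nude mice of the NCR Nu/Nu strain. All cells lacked Atg5, a gene needed to form autophagosomes, and carried Bcl-2, an inhibitor of apoptosis. In 2 tumors the cells expressed EGFP, a green fluorescent protein, and in the other 2 they expressed p62 fused to EGFP; the mice received no treatment. p62 is a cargo receptor of autophagy that is itself degraded by autophagy, and the comparison asks what differs when it is expressed in excess. The labels do not say whether both tumors of a group had their own host mouse, or whether the cells were single clones, so p-values measure only the spread between these tumors. Nude mice lack a thymus and keep other host cells, whose RNA is part of each sample. In such bulk samples, fewer cells of a type and less RNA per cell cannot be told apart. Each tumor was read on 1 Affymetrix array. Values below are probe set signals on the linear scale of the deposited tables, tumor 1 before tumor 2 and EGFP before p62-EGFP, and differences are on the log2(signal + 16) scale.

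Complexes I and II pass electrons from NADH and from succinate to ubiquinone, complex III hands them to cytochrome c, and complex IV transfers them to oxygen. Complexes I, III and IV pump protons across the inner mitochondrial membrane, and complex V, the ATP synthase, uses their return flow to make ATP. Most subunits are nuclear-encoded and imported, and a core set is encoded by mitochondrial DNA. Several subunits of complex IV exist as tissue isoforms, with forms typical of heart and skeletal muscle, lung or testis.

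Sqstm1, the gene of p62, read 976 and 1156 in the EGFP tumors against 1433 and 1688 in the p62-EGFP tumors (log2 difference 0.54, SE 0.14, limma adjusted p = 0.235). It lies on chromosome 11, where the median log2 difference of tested genes was 0.30. The arrays were even in brightness, with median signals of 57.7 to 60.9. Of the epithelial markers, all 5 tested had a difference above 0, with a median of 0.51, and 2 had both p62-EGFP tumors above both EGFP tumors. Their list of 10 measured genes summed to 1498 and 736 with EGFP against 1487 and 2149 with p62-EGFP, lowest in EGFP tumor 2. Krt19 read 93.6 and 156 against 332.9 and 341 (log2 difference 1.36, SE 0.25, limma adjusted p = 0.188). Epcam read 351 and 109 against 361 and 660.3, and Krt18 729.6 and 254 against 545 and 627. Krt8 read 136.6 and 80.5 against 101.3 and 239.2, and Cdh1 134.3 and 86.8 against 89.7 and 221.2, both with overlapping groups. The untested genes of the list were below the signal filter. Of these, Pax8, Krt7 and Cdh16 read at most 11.2, 8.2 and 3.7 on any array. Lhx1 read 8.3 and 12.7 against 23.4 and 28.5, and Wt1 the other way, 31.1 and 24.5 against 14.8 and 18.0. Skeletal muscle transcripts stood high in p62-EGFP tumor 1: the summed signal of 25 marker genes was 185 and 1106 with EGFP alone against 6248 and 261 with p62-EGFP. Leukocyte transcripts stood high in EGFP tumor 2, with summed signals of 14 markers of 1467 and 12424 with EGFP against 2635 and 2698 with p62-EGFP. Endothelial markers were lower with p62-EGFP, with summed signals of 10 genes of 533 and 704 against 265 and 345 and both p62-EGFP tumors below both EGFP tumors for 7 of 8 tested. For the subunits described with their signals, values with a tumor left out stand beside a result where its difference moved by over 1.5 times. For differences near 0 they stand with the processing alternatives. They are not given for the marker genes, the related lists or the genes outside the symbol rule. The part of these cell types in the results was not tested.

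Signals of the respiratory chain and ATP synthase genes were slightly higher in the p62-EGFP tumors, in all 5 complexes. Of the 80 genes, 78 passed the filter on low signals and were tested, and 69 of these had a difference above 0 and 9 below (65 and 13 after quantile normalization). The median log2 difference, p62-EGFP minus EGFP, was 0.20, which is 1.15-fold, against 0.01 over the 7846 genes tested. For 43 of the 78, both p62-EGFP tumors read higher than both EGFP tumors, where 26.4% of all tested genes did so, and for 1 both read lower, where 22.1% of all tested genes did so. No subunit passed the test in either direction (limma with Benjamini-Hochberg adjustment over all tested probe sets, lowest adjusted p = 0.179); 0.0510% of all tested genes passed as higher and 0.00% as lower. At an unadjusted limma p below 0.05, 19 subunits were higher and 0 lower, with 8.50% and 6.30% of all tested genes as the background.

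**Figure D1:**
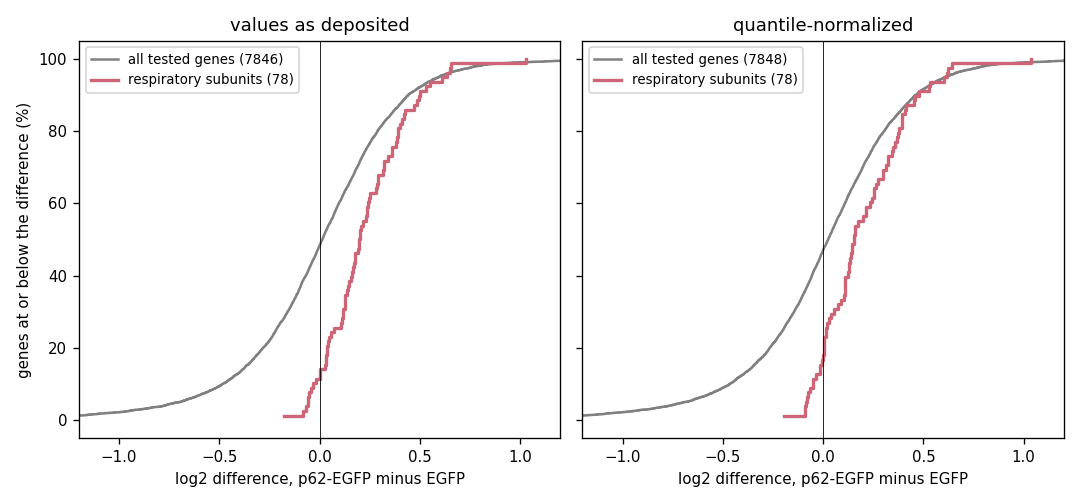
Cumulative share of genes (vertical axis, percent) by log2 difference, p62-EGFP minus EGFP (horizontal axis), for the 78 tested subunits in red and all tested genes in grey, with signals as deposited on the left and after quantile normalization on the right. The red line lies to the right of the grey one over most of its course, with medians of 0.20 against 0.01 as deposited and of 0.15 against 0.03 after quantile normalization.

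Bright probe sets as a whole leaned the same way. Among tested genes with a mean signal of 1600 or more, 53.3% had both p62-EGFP tumors above both EGFP tumors, and 12 of the 15 subunits in that range did. Between 400 and 1600 the share was 29.6% of 1574 genes, and 27 of 57 subunits. The median log2 difference was 0.20 for the subunits and 0.04 for all genes between 400 and 1600, and 0.19 against 0.14 at 1600 or more. The genes of each range include the subunits, and the part of brightness in these differences was not tested. These ranges were chosen after the values were seen.

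The subunits with the smallest p-values were Cox5b of complex IV, Atp5h and Atp5g1 of complex V, and Ndufc2 of complex I. Cox5b encodes a nuclear subunit of cytochrome c oxidase on the matrix side. Its signal was 1123 and 1271 with EGFP alone against 1898 and 1876 with p62-EGFP. Both p62-EGFP tumors read higher than both EGFP tumors (log2 difference 0.65, SE 0.11, limma adjusted p = 0.179). Atp5h, the d subunit of the ATP synthase peripheral stalk, read 1562 and 1499 against 2189.5 and 2135, a log2 difference of 0.49 (SE 0.09, limma adjusted p = 0.188). Ndufc2, an accessory subunit of the membrane arm of complex I, read 1066 and 1129 against 1583 and 1502, a log2 difference of 0.49 (SE 0.10, limma adjusted p = 0.207). Atp5g1 encodes the membrane-embedded c subunit that forms the rotating ring, and read 413 and 462 against 668 and 720.0, a log2 difference of 0.65 (SE 0.14, limma adjusted p = 0.212).

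The 250 bases before the RefSeq start of these genes are shown because the genes lead the list together, and because nuclear respiratory genes are known targets of the transcription factor NRF1 and of the ETS factor GABP. The sequences are from the RefSeq promoter table of build GRCm38.p6, which lists 65 of the 80 genes: chr1:36691237-36691486 on the plus strand for Cox5b, chr11:115419920-115420169 on the minus strand for Atp5h, chr7:97399753-97400002 on the plus strand for Ndufc2 and chr11:96075632-96075881 on the minus strand for Atp5g1. Each is written 5′ to 3′ along the gene's strand, and capitals mark matches on either strand to GCGCA, any base and GCGC, for NRF1, or to CCGGAAG, for ETS factors.
Cox5b: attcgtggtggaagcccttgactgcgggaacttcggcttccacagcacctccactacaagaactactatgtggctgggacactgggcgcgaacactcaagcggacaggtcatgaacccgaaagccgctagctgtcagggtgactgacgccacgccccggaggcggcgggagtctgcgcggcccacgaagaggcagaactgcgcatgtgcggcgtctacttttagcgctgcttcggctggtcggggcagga
Atp5h: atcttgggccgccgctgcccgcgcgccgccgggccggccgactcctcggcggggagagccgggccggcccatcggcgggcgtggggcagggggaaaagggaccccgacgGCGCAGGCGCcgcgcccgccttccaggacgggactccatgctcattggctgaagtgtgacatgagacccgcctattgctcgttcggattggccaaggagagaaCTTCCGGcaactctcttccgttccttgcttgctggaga
Ndufc2: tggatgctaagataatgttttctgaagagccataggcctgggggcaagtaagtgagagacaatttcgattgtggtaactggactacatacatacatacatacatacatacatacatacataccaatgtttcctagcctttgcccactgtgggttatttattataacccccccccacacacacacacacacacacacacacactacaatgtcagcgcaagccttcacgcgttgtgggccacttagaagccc
Atp5g1: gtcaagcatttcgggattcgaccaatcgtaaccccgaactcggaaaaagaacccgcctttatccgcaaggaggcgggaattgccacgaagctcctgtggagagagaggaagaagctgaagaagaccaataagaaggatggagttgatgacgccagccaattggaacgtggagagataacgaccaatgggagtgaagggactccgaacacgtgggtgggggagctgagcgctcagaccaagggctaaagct
Only the Atp5h sequence among these 4 held a match, 1 to each motif. Over the 64 tested subunits with a sequence, 10 held the NRF1 letters (15.6%) and 12 the ETS letters (18.8%). Over all 6446 tested genes with a sequence the shares were 10.7% and 17.3%. A match is a description of the letters and not of binding, and a sequence without one says nothing about the factor.

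Complex V stood most evenly on the higher side. All 17 of its genes had a difference above 0 (also after quantile normalization; Atp5a1 and Atp5g2 were below 0 when all probe sets of a gene were averaged), with a median of 0.23 and a range of 0.04 to 0.65, and both p62-EGFP tumors were above both EGFP tumors for 13 of them. These 13 are 76.5%, against 26.4% of all tested genes. The 5 genes of the catalytic F1 head had a median of 0.23, the 4 of the peripheral stalk 0.22, the 3 of the c ring 0.17 and the 5 small membrane subunits 0.29. Atp5md, a small membrane subunit also known as DAPIT, read 849 and 890.3 against 1301 and 1056, a log2 difference of 0.42 (SE 0.14, limma adjusted p = 0.294), or 0.28 with p62-EGFP tumor 1 left out. Atp5k, the e subunit at the dimer interface, read 1479 and 1462 against 1875 and 1725, a log2 difference of 0.29 (SE 0.10, limma adjusted p = 0.296). In both, the p62-EGFP tumors lay above the EGFP tumors and p62-EGFP tumor 1 was the higher one. The lowest difference was that of Atp5a1, the alpha subunit of the F1 head, at 1336 and 1213.5 against 1299 and 1316, with overlapping groups (log2 difference 0.04, SE 0.11, limma adjusted p = 0.884).

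The c subunit is encoded by Atp5g1, Atp5g2 and Atp5g3, whose mature proteins are alike and whose import sequences differ. Atp5g1, with the values given above, had the largest difference of complex V. Atp5g2 read 1000.1 and 1082 with EGFP against 1062 and 1218 with p62-EGFP, so its groups overlapped (log2 difference 0.13, SE 0.12, limma adjusted p = 0.653). Atp5g3 read 2149.6 and 1855 against 2198 and 2302.5, a log2 difference of 0.17 (SE 0.10, limma adjusted p = 0.488), with a gap between groups that was smaller than the one between the EGFP tumors. Its difference was 0.065 with EGFP tumor 2 left out, 0.28 with EGFP tumor 1 left out and 0.10 after quantile normalization. Whether Atp5g1 differed from the other two in its response was not tested.

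In complex IV, 13 of 14 tested genes had a difference above 0 (11 after quantile normalization), with a median of 0.20, and 9 had both p62-EGFP tumors above both EGFP tumors. These 9 are 64.3%, against 26.4% of all tested genes. With all 4 tumors, the largest difference of any subunit was that of Cox6b2, a testis isoform of a subunit that links the monomers of the enzyme. It read 281 and 121 with EGFP against 454 and 344 with p62-EGFP, a log2 difference of 1.03 (SE 0.39, limma adjusted p = 0.331), and EGFP tumor 2 stood apart as the lowest. With that tumor left out the difference was 0.47, below those of Cox5b, Atp5g1 and Uqcr10 in the same setting (0.74, 0.72 and 0.68), and with EGFP tumor 1 left out it was 1.59. Its widely expressed counterpart Cox6b1 read 2316 and 2246 against 2685 and 2541 (log2 difference 0.19, SE 0.08, limma adjusted p = 0.35; 0.07 after quantile normalization). Cox7a2l, also called SCAF1, which joins complexes III and IV into supercomplexes, read 666 and 674 against 775 and 861.5, a log2 difference of 0.28 (SE 0.13, limma adjusted p = 0.381). The groups did not overlap for any of these 3 genes. The difference of the main subunit 4 isoform, Cox4i1, depended on the scaling. It read 2309 and 2351 against 2571 and 2449 (log2 difference 0.11, SE 0.08, limma adjusted p = 0.558), and -0.02 after quantile normalization. Cox8a had the lowest difference of complex IV, with 988.5 and 942 against 988.5 and 888 (log2 difference -0.04, SE 0.12, limma adjusted p = 0.885).

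The muscle isoforms of complex IV were dim, and all 3 were highest in p62-EGFP tumor 1, the tumor with the high muscle transcripts. Cox6a2 read 20.1 and 36.5 with EGFP against 80.4 and 25 with p62-EGFP (log2 difference 0.53, SE 0.45, limma adjusted p = 0.608). With p62-EGFP tumor 1 left out its difference was -0.09, and with p62-EGFP tumor 2 left out it was 1.15. Cox7a1 read 53.6 and 31.9 against 67.9 and 45.6 (log2 difference 0.32, SE 0.28, limma adjusted p = 0.619), and p62-EGFP tumor 2 lay between the EGFP tumors. It ranged from 0.0467, with EGFP tumor 2 left out, to 0.59, with EGFP tumor 1 left out. Cox8b read 0.9 and 9.0 against 25.1 and 6.2 and was below the signal filter. Their widely expressed counterparts varied less from tumor to tumor. Cox6a1 read 2617 and 2705 against 3170.2 and 2858 (log2 difference 0.18, SE 0.08, limma adjusted p = 0.401; 0.0039 after quantile normalization and 0.10 with p62-EGFP tumor 1 left out). Cox7a2 read 1836 and 2172 against 2560.5 and 2166, with overlapping groups (log2 difference 0.24, SE 0.13, limma adjusted p = 0.449), and 0.12 to 0.36 with 1 tumor left out. With the 3 muscle isoforms left out, the median of complex IV was 0.19.

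**Figure D2:**
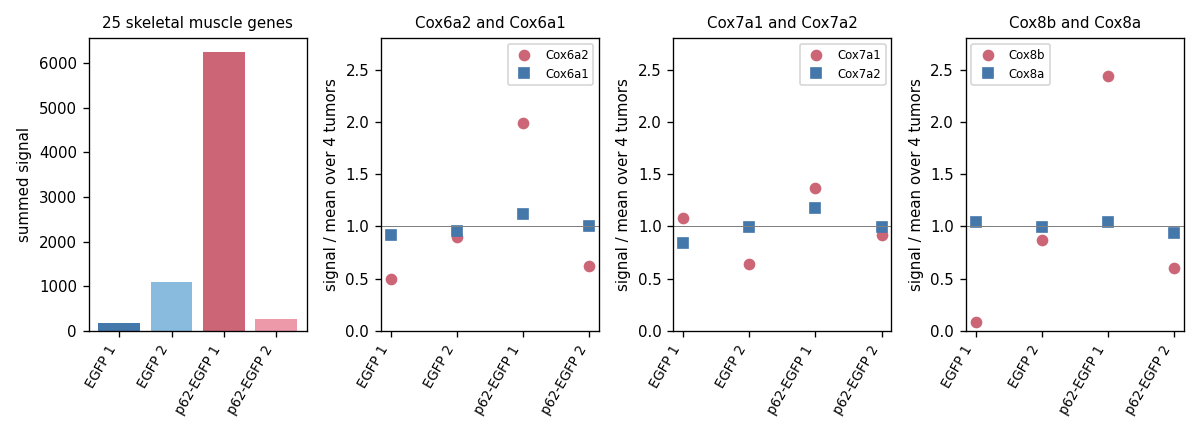
Left: summed signal of 25 skeletal muscle genes in each tumor (bars from 0). Right: signal of each muscle isoform (red circles) and its widely expressed counterpart (blue squares) in each tumor, divided by the gene's mean over the 4 tumors, with 1 point per tumor. The muscle sum is 6248 in p62-EGFP tumor 1 and at most 1106 elsewhere, and Cox6a2, Cox7a1 and Cox8b are each highest in that tumor.

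The other isoforms were at or near the lower end of the signal range. Cox4i2, the lung isoform of subunit 4, read 7.4 and 10.5 with EGFP against 11 and 10.5 with p62-EGFP and was below the signal filter. The testis isoform Cox8c read 47.3 and 42.0 against 49.7 and 50.7 (log2 difference 0.13, SE 0.19, limma adjusted p = 0.769). For Cox7b, Cox7b2 and Ndufa4l2 no probe set with a single gene symbol was found, and they are not analysed here.

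Complex I is described by subunit class. Its 33 genes had a median difference of 0.17, with 27 above 0 and 6 below, and both p62-EGFP tumors were above both EGFP tumors for 14. These 14 are 42.4%, against 26.4% of all tested genes. The 6 core subunits, which carry the flavin and iron-sulfur clusters or lie at the quinone site, had a median of 0.08 and a range of -0.08 to 0.24. By representative probe set, 16.7% of them had both p62-EGFP tumors above both EGFP tumors, below the share over all tested genes. This was Ndufs1 alone. It read 366 and 376 against 417 and 468 (log2 difference 0.24, SE 0.15, limma adjusted p = 0.484, chosen after its values were seen). Some further probe sets of Ndufs8, Ndufv1 and Ndufv2 had this order too, and others of Ndufs8 and Ndufv2 did not. The tested probe sets of Ndufs8 ran from 0.05, its representative, to 0.42. The 27 supernumerary subunits, which surround this core, had a median of 0.21 and a range of -0.18 to 0.63, which spans that of the core. Of these, 13 had groups that did not overlap with p62-EGFP higher. The difference between the classes was not tested. Of the Ndufb genes, which encode subunits of the membrane arm, 9 of 10 had a difference above 0, with a median of 0.32, and 6 had both p62-EGFP tumors above both EGFP tumors.

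Ndufc2, described above, and Ndufc1 encode neighbouring small subunits of the membrane arm. Ndufc1 read 645 and 740.1 with EGFP against 1047 and 922 with p62-EGFP, a log2 difference of 0.50 (SE 0.14, limma adjusted p = 0.249). Ndufb11, a membrane-arm subunit encoded on the X chromosome, read 1521 and 1628 against 2125 and 2005, a log2 difference of 0.39 (SE 0.09, limma adjusted p = 0.221). Both p62-EGFP tumors were above both EGFP tumors for these genes. Ndufs4, an accessory subunit whose loss in mice causes a Leigh-like encephalopathy, read 657 and 569 against 847 and 769.6, a log2 difference of 0.39 (SE 0.14, limma adjusted p = 0.316). With all 4 tumors, Ndufa8 had the largest difference of complex I and the widest spread between EGFP tumors among these genes, at 658 and 413 against 833 and 803 (log2 difference 0.63, SE 0.24, limma adjusted p = 0.325). With EGFP tumor 2 left out it was 0.31, below Ndufc1, Ndufc2 and Ndufb11 at 0.595, 0.53 and 0.44, and with EGFP tumor 1 left out it was 0.96.

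Ndufa6, an accessory subunit that binds the mitochondrial acyl carrier protein, was the 1 subunit with both p62-EGFP tumors below both EGFP tumors. It read 614.5 and 536 against 524 and 488, a log2 difference of -0.18 (SE 0.15, limma adjusted p = 0.594). The gap between the groups, 536 against 524, was small beside the spread within them, and the median log2 difference of its chromosome, 15, was -0.21. Ndufa4, named as a complex I subunit and now assigned to complex IV, read 919.6 and 732 against 945 and 851, with overlapping groups (log2 difference 0.13, SE 0.16, limma adjusted p = 0.727). Moving it to complex IV gave medians of 0.17 for complex I and 0.19 for complex IV.

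**Figure D3:**
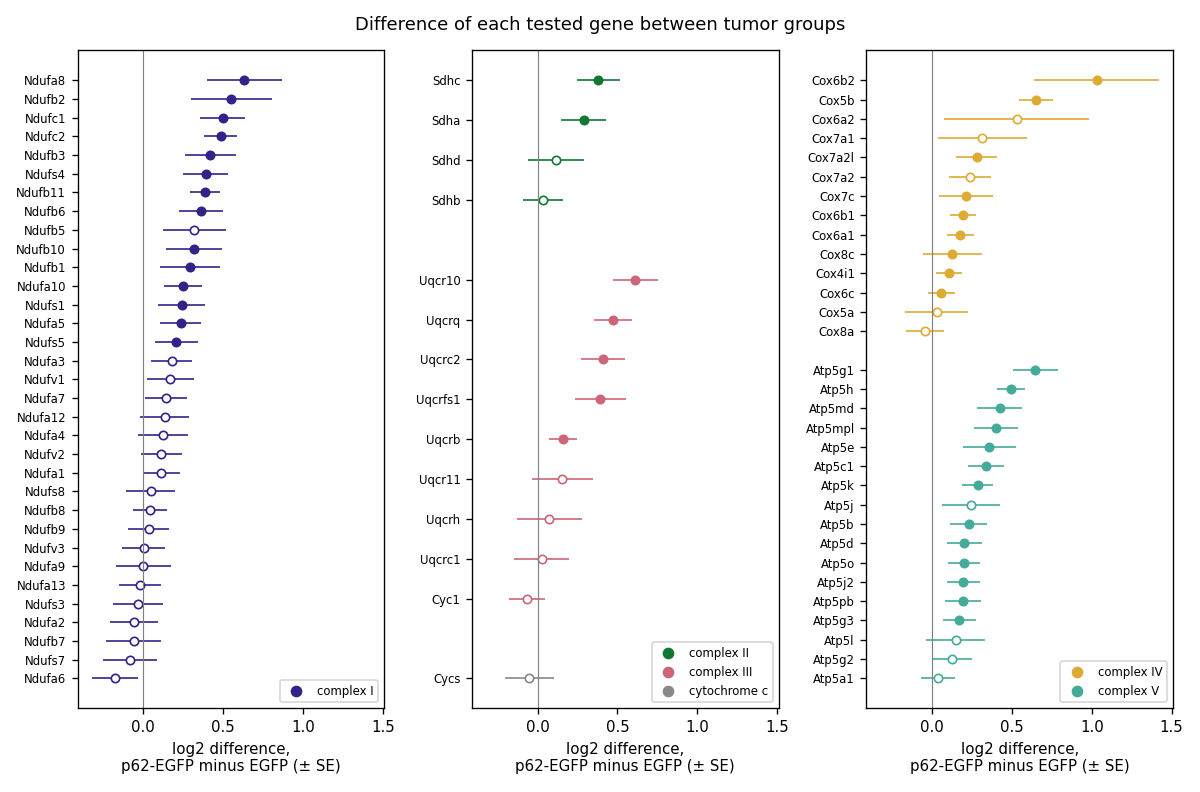
Log2 difference of each tested gene, p62-EGFP minus EGFP (horizontal axis), with its SE from the limma fit as a bar, for complex I (left), complexes II and III with cytochrome c (middle) and complexes IV and V (right). Filled points mark the 43 genes for which both p62-EGFP tumors were above both EGFP tumors, and open points the others, among them Ndufa6 at -0.18.

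Complex II, succinate dehydrogenase, is also an enzyme of the citric acid cycle and has no subunit encoded by mitochondrial DNA. Its 4 genes had a median difference of 0.20. By representative probe set, both p62-EGFP tumors were above both EGFP tumors for 2 of them, 1 catalytic subunit and 1 membrane anchor. That is 50.0%, against 26.4% of all tested genes. The flavoprotein gene Sdha read 727 and 611 with EGFP against 832 and 805 with p62-EGFP (log2 difference 0.29, SE 0.14, limma adjusted p = 0.404; 0.17 with EGFP tumor 2 left out). Its second probe set gave 0.13, with overlapping groups. The membrane anchor gene Sdhc read 446 and 432.5 against 559 and 595.5 (log2 difference 0.38, SE 0.14, limma adjusted p = 0.311), and a second probe set gave 0.0964, with overlapping groups. Their partners overlapped between groups. The iron-sulfur protein gene Sdhb read 834 and 954.5 against 930.1 and 899 (log2 difference 0.03, SE 0.13, limma adjusted p = 0.912). The other anchor gene, Sdhd, read 505 and 646 against 669 and 575 (log2 difference 0.12, SE 0.18, limma adjusted p = 0.781). Its second, dimmer probe set read 53.5 and 56 against 85.5 and 95.8, with groups apart (log2 difference 0.59, SE 0.17, limma adjusted p = 0.263), and the mean over both probe sets gave 0.35.

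Complex III had a median difference of 0.16 over 9 genes, with both p62-EGFP tumors above both EGFP tumors for 5 of them. These 5 are 55.6%, against 26.4% of all tested genes. The small subunit gene Uqcr10 read 442 and 484 against 674 and 759, a log2 difference of 0.61 (SE 0.14, limma adjusted p = 0.219). Uqcrq, another small subunit gene, read 684 and 647 against 946 and 911.5, a log2 difference of 0.47 (SE 0.12, limma adjusted p = 0.229), and the mean over all its probe sets, 3 of them below the signal filter, gave 0.0556. The core protein gene Uqcrc2 read 649.6 and 577 against 857 and 782, a log2 difference of 0.41 (SE 0.14, limma adjusted p = 0.294). All 3 were separated between groups by more than the spread within either. The catalytic subunits differed in their values. Uqcrfs1, the Rieske iron-sulfur protein, read 930.1 and 713 against 1086 and 1063 (log2 difference 0.39, SE 0.16, limma adjusted p = 0.348), and its difference was 0.21 with EGFP tumor 2 left out. Cyc1, cytochrome c1, read 1091 and 1007 against 1017 and 983, with overlapping groups (log2 difference -0.07, SE 0.11, limma adjusted p = 0.80).

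Cytochrome c is the soluble carrier between complexes III and IV and also activates caspases once released. Its gene Cycs read 1465 and 1230.0 with EGFP against 1432 and 1172 with p62-EGFP, a log2 difference of -0.05 (SE 0.15, limma adjusted p = 0.890). In both groups tumor 1 read higher than tumor 2. Its other 2 probe sets gave log2 differences of -0.23 and -0.24, the first with both p62-EGFP tumors below both EGFP tumors, and neither passed (limma adjusted p = 0.412 and 0.619).

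The group differences were of about the size of the differences between replicates. The median absolute log2 difference was 0.19 between the EGFP tumors and 0.12 between the p62-EGFP tumors, beside the group median of 0.20. For 34 of the 78 genes (43.6%) the group difference exceeded both replicate differences, as it did for 34.8% of all tested genes. p62-EGFP tumor 2 was below p62-EGFP tumor 1 for 61 of the 78 genes, and for 47.7% of all tested genes. p62-EGFP tumor 1 was the highest of the 4 tumors for 48 genes, p62-EGFP tumor 2 for 16, EGFP tumor 1 for 10 and EGFP tumor 2 for 4. Over the 7846 tested genes these counts were 1688, 1747, 2480 and 1931. The lowest value was in EGFP tumor 2 for 38 genes and in EGFP tumor 1 for 28, against 2967 and 1761 of all tested genes.

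For complex I, the median of p62-EGFP tumor 2 was 0.04 above EGFP tumor 1 and 0.21 above EGFP tumor 2, and EGFP tumor 2 lay below EGFP tumor 1 for 23 of 33 genes, as it did for 58.3% of all tested genes. For complex V, the medians of p62-EGFP tumor 2 were 0.22 and 0.24 above EGFP tumors 1 and 2, and those of p62-EGFP tumor 1 were 0.34 and 0.28 above them. Over all subunits the median was 0.15 when p62-EGFP tumor 1 was left out, with 46 of 78 genes above both EGFP tumors (34.8% of all tested genes), and 0.19 when EGFP tumor 2 was left out, with EGFP tumor 1 below both p62-EGFP tumors for 54 genes (38.2% of all tested genes). The complex I median was 0.10 with EGFP tumor 2 left out and 0.26 with EGFP tumor 1 left out. The median of all subunits was 0.26 when EGFP tumor 1 was dropped and 0.23 when p62-EGFP tumor 2 was. With EGFP tumor 1 left out, limma called 15 of the 78 genes and 22.2% of all tested genes, and with EGFP tumor 2 left out 8 genes and 9.70%. In these fits only the p62-EGFP tumors give a spread, and they assume that the lone EGFP tumor varies like it. With either p62-EGFP tumor left out it called 0 subunits, with 4 and 7 at an unadjusted limma p below 0.05.

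**Figure D4:**
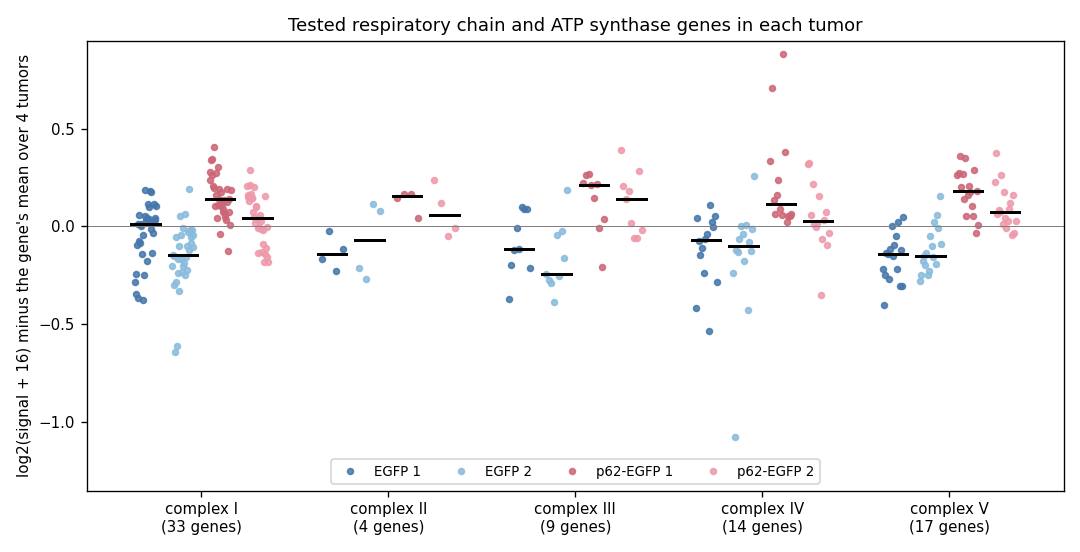
Log2(signal + 16) of each tested gene in each tumor minus the gene's mean over the 4 tumors (vertical axis), grouped by complex, with 1 point per gene and a black bar at the median of each tumor. The bars of p62-EGFP tumor 1 lie above those of both EGFP tumors in every complex, and in complex I the bar of p62-EGFP tumor 2 lies close above that of EGFP tumor 1, with a median of 0.04 over the genes' differences.

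Atp5h, Atp5g1, Uqcr10 and Uqcrq lie on chromosome 11, where genes in general read higher in the p62-EGFP tumors. The median log2 difference of the 697 tested genes on chromosome 11 was 0.30, and 59.1% of them had both p62-EGFP tumors above both EGFP tumors. These 4, all of the subunits on this chromosome, had a median of 0.55. Without them the median of the others was 0.19, with 39 of 74 higher in both p62-EGFP tumors. Of all tested genes outside chromosome 11, 23.2% were higher in both. With the median of each gene's chromosome subtracted, the differences were 0.34 for Atp5g1, 0.31 for Uqcr10, 0.19 for Atp5h and 0.17 for Uqcrq. Cox5b lies on chromosome 1, whose median was 0.15, and stood at 0.51 after this subtraction. The median of all subunits was then 0.22, and 49 of the 78 were higher in both p62-EGFP tumors, against 22.8% of all tested genes.

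Probe sets that were not used to represent a gene gave a similar picture, although they share the arrays. Of 60 further tested probe sets of these genes, 50 had a difference above 0, with a median of 0.21, and both p62-EGFP tumors were above both EGFP tumors for 35. None passed the test. Over all tested genes, by 1 probe set each, the share with this order was 26.4%. For 35 of the 41 genes with several tested probe sets, all gave the same sign, and the median range between probe sets of a gene was 0.14. Cox5b had 4 tested probe sets with log2 differences of 0.41 to 0.70, and both p62-EGFP tumors were above both EGFP tumors in all 4; the mean over all 6 of its probe sets, dim ones included, was 0.425. The largest disagreement was in Atp5c1, the gamma subunit of the F1 head, where the representative gave 0.34 and a dim probe set -0.26. For Atp5o, the peripheral stalk subunit known as OSCP, the representative gave 0.20 and the other probe set 0.75. These last genes were chosen after their values were seen. Of the representatives, 10 carry the array maker's suffix for probes shared between genes and 5, Cox5b among them, that for probes that may bind other transcripts. The 63 tested others had a median of 0.20, with 34 higher in both p62-EGFP tumors.

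**Figure D5:**
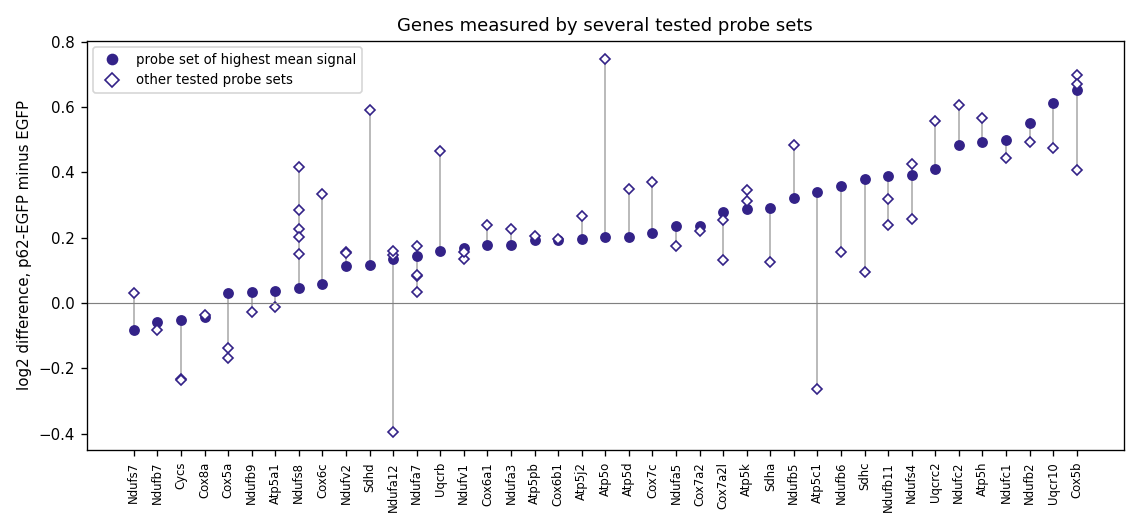
Log2 difference, p62-EGFP minus EGFP (vertical axis), of every tested probe set for the 41 genes with at least 2 of them, ordered by the representative probe set. Filled circles are the representatives, open diamonds the other probe sets, and grey lines span a gene's range; the diamonds of Atp5c1 at -0.26 and Atp5o at 0.75 lie far from their circles, and the 4 points of Cox5b lie between 0.41 and 0.70.

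Genes that work with the complexes were examined by list. Of 36 tested assembly factors, which insert cofactors and join subunits, 20 were higher in both p62-EGFP tumors and 2 lower in both, with a median of 0.22 and 0 passing the test. The same counts were 16 and 3 of 30 for mitochondrial import and carrier genes, with a median of 0.22, and 4 and 0 of 16 for the citric acid cycle and pyruvate dehydrogenase, with a median of 0.12. For regulators of mitochondrial biogenesis and mitochondrial DNA expression they were 8 and 1 of 19, with a median of 0.12. No gene of these lists passed the test over all probe sets. The 26.4% of all tested genes that were higher in both p62-EGFP tumors is the background for all 4 lists, and the citric acid cycle share, 25%, was close to it.

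Tmem70, which helps assemble the ATP synthase and its c ring, had the largest difference among the assembly factors. It read 110.2 and 138 with EGFP against 280.4 and 290.3 with p62-EGFP, a log2 difference of 1.11 (SE 0.18, limma adjusted p = 0.179). Coa3, an assembly factor of complex IV, read 637 and 641 against 1003.5 and 984 (log2 difference 0.62, SE 0.12, limma adjusted p = 0.188). Bcs1l, which places the Rieske protein into complex III, read 69.5 and 47.3 against 114 and 130.0 (log2 difference 0.91, SE 0.22, limma adjusted p = 0.221). Both p62-EGFP tumors were well above both EGFP tumors for all 3. Tmem70 and Bcs1l lie on chromosome 1 and Coa3 on chromosome 11.

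Among the regulators, Tefm, an elongation factor of mitochondrial transcription, read 47.4 and 49.7 against 119 and 115 (log2 difference 1.04, SE 0.17, limma adjusted p = 0.179). Polg2, the accessory subunit of the mitochondrial DNA polymerase, read 100.6 and 91.0 against 156 and 169 (log2 difference 0.67, SE 0.16, limma adjusted p = 0.221). Both lie on chromosome 11, and neither overlapped between groups. Tfb2m, a mitochondrial transcription initiation factor, read 224 and 231 against 286 and 338 (log2 difference 0.43, SE 0.16, limma adjusted p = 0.335). The coactivator gene Ppargc1a, a regulator of mitochondrial biogenesis, read 61.2 and 42.5 against 62.6 and 40.4, with tumor 1 higher than tumor 2 in both groups (log2 difference -0.01, limma adjusted p = 0.987; chosen after its values were seen). The genes of the factors whose motifs were searched, also chosen after their values were seen, lay in opposite directions. Nrf1 read 154.0 and 136 against 126 and 115 (log2 difference -0.24, SE 0.17, limma adjusted p = 0.546), and Gabpa, the DNA-binding subunit of GABP, 271 and 398 against 461.5 and 504 (log2 difference 0.53, SE 0.22, limma adjusted p = 0.35).

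In the citric acid cycle, the fumarase gene Fh1 read 384 and 389 against 577 and 591 (log2 difference 0.58, SE 0.13, limma adjusted p = 0.219). The malate dehydrogenase gene Mdh2 read 1436 and 1378.5 against 1885 and 1732 (log2 difference 0.36, SE 0.10, limma adjusted p = 0.244), and Idh3g, a subunit of isocitrate dehydrogenase, 787 and 1002 against 1053.5 and 990.5 (log2 difference 0.20, SE 0.15, limma adjusted p = 0.574). The groups were apart for Fh1 and Mdh2 and overlapped for Idh3g. Of the import and carrier genes, Vdac1, the main outer membrane pore, read 929 and 953 against 1368 and 1404 (log2 difference 0.55, SE 0.10, limma adjusted p = 0.189). The related pores, chosen after their values were seen, lay the other way: Vdac3 read 1076 and 1004 against 851 and 827 (log2 difference -0.30, SE 0.11, limma adjusted p = 0.328), and Vdac2 607 and 830.4 against 563 and 588 (log2 difference -0.29, SE 0.18, limma adjusted p = 0.496). The matrix chaperonin gene Hspd1 read 966 and 1013 against 1372 and 1352 (log2 difference 0.455, SE 0.10, limma adjusted p = 0.219), and the inner membrane translocase gene Timm17b 328 and 338 against 523 and 502 (log2 difference 0.60, SE 0.14, limma adjusted p = 0.219). Vdac1, Hspd1 and Timm17b had both p62-EGFP tumors above both EGFP tumors, and Vdac2 and Vdac3 both below. Vdac1 lies on chromosome 11, Vdac3 on chromosome 8 and Vdac2 on chromosome 14, with chromosome medians of 0.30, -0.22 and -0.05. Fh1 and Hspd1 lie on chromosome 1, with a median of 0.15. The part of the chromosomes in these differences was not tested.

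A few genes of the complexes lie outside the symbol rule and were chosen after their values were seen. ND5, a core subunit of complex I encoded by mitochondrial DNA, read 1893 and 1828 with EGFP against 2438 and 1967 with p62-EGFP, a log2 difference of 0.23 (SE 0.13, limma adjusted p = 0.439). Ndufab1, the mitochondrial acyl carrier protein that is also a subunit of complex I, read 504 and 430.5 against 829 and 758 (log2 difference 0.75, SE 0.15, limma adjusted p = 0.196). Atpif1, which inhibits ATP hydrolysis by complex V, read 1140.4 and 894 against 1196 and 1278 (log2 difference 0.29, SE 0.15, limma adjusted p = 0.427). For all 3 both p62-EGFP tumors were above both EGFP tumors, and none passed the test.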

How the data were processed

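Biotin-labelled cRNA of each tumor was read on its own Affymetrix mouse 430A 2.0 array, per the labels' protocols. The authors' deposited values, made with MAS5, are signal intensities on a linear scale, per the submitters' processing notes; its version and settings are not named there. With the outer 2% trimmed from both ends, each array had a mean signal of 150.04, and the values were used as deposited. Genes were named through the supplied array annotation, and chromosomes through RefSeq's gene table of GRCm38.p6. Of 22690 probe sets, 64 controls were left out, and 7 probe sets that name a subunit beside another gene were not used.

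The deposited intensities were converted to log2(signal + 16), a scale that understates fold changes of dim genes. Probe sets with a mean log2 value at or above the 40th percentile, 5.6, were tested, 13576 in all. Groups of 2 were compared in limma 3.58.1 (R 4.3.3), using lmFit followed by eBayes with a mean-variance trend; p-values are two-sided, adjusted after Benjamini-Hochberg and called below 0.05, and the fit was checked on simulated data. With 4 arrays, 2 residual degrees of freedom remain and an exact two-sided permutation test of 1 value cannot go below p = 0.333; the number of arrays limits the precision. Differences are means of p62-EGFP minus EGFP on the log2 scale. The subunits and lists were chosen with earlier results of these data known. Named are, per complex, the 4 genes of smallest p and those of highest and lowest difference, all of complex II, Cyc1, Uqcrfs1, Cycs, the tissue isoforms, and 3 genes per related list. Alternatives covered scaling, pseudocount, filter, variance model, replicate block, probe set choice, chromosome medians and each tumor left out. Summaries and figures used Python 3.11.15, pandas 2.3.3 and matplotlib 3.10.9.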

Additional observations from a re-analysis of the deposited data

How the results depend on the processing

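All 5 complexes kept a median above 0 under every alternative run, and no subunit passed the limma test while all 4 tumors were kept. With all tumors, the median of all subunits ran from 0.15 to 0.24. Quantile normalization gave medians of 0.15 for complex IV and 0.18 for complex V. The count of subunits lower in both p62-EGFP tumors was 2 with quantile normalization and 0 with median centring. It was 3 with the mean over all probe sets of a gene and 0 with chromosome medians subtracted. Of all tested genes, 18.9% to 21.6% were lower in both in these settings. Leaving out each tumor in turn, 0 to 15 subunits passed and 3 to 10 were lower than the EGFP tumors. The medians then ran from 0.15 to 0.26 for all subunits, from 0.10 to 0.26 for complex I, from 0.14 to 0.27 for complex II, from 0.21 to 0.33 for complex III, from 0.11 to 0.22 for complex IV and from 0.20 to 0.30 for complex V. A replicate block (log2 deviations of same-numbered tumors correlated at 0.08 across probe sets) left 0 subunits called and the median at 0.20; 2 pairs do not show that the numbers pair the tumors.

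Signs of small differences turned in a few settings. The mean over all probe sets gave -0.0057 for Atp5a1 and -0.0247 for Atp5g2, and quantile normalization -0.0179 for Cox4i1. Subtracting chromosome medians gave 0.0561 for Cox8a, -0.033 for Cox8c, 0.14 for Cyc1, 0.0706 for Cycs and 0.0297 for Ndufa6. Leaving out 1 tumor gave -0.0306 to 0.11 for Atp5a1, -0.0865 to 1.15 for Cox6a2, -0.12 to 0.034 for Cox8a, -0.19 to 0.0915 for Cycs, -0.0361 to 0.29 for Ndufa4, -0.0609 to 0.13 for Sdhb and -0.0565 to 0.29 for Sdhd. It kept the sign but moved the size for Atp5g2 (0.0294 to 0.22), Cyc1 (-0.12 to -0.0107) and Ndufa6 (-0.27 to -0.0822), and Cox8c was 0.0646 with EGFP tumor 2 left out. With a pseudocount of 64, Cox6a2 was 0.30 and Cox7a1 0.18. The cause was not tested in any of these.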
